A study of Mus musculus with 8 samples.

Results

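Egr1, Egr2, Egr3, Nr4a1, Nr4a2, Klf2, Klf4, Klf6, Ier2 and Dusp1 are early response genes, and they were examined by name as 10 of the 52224 genes in a table of normalized read counts. The RNA came from mouse hematopoietic stem cells, the bone marrow cells that give rise to all blood lineages, sorted as CD48-CD150+LSK (lineage-negative, Sca-1-positive and Kit-positive). The groups were 4 DekCon and 4 DekTg libraries. DekCon and DekTg are the genotype names, and the labels give no further allele, no promoter that drives a transgene, no treatment, no age and no statement that each library came from its own mouse. Dek, the gene the genotypes are named for, encodes a chromatin protein, and the series title places the samples in a study of DEK inhibition, replication stress and Fanconi anemia. The comparison made here is DekTg against DekCon.

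Early response genes are transcribed within minutes of a stimulus from transcription factors that are already in the cell, such as SRF with its partners and CREB, without new protein being made first. Many of their products are transcription factors that pass the signal on, and others, such as the phosphatase encoded by Dusp1, switch the signal off. In hematopoietic stem cells several of them, among them Egr1 and the NR4A receptors, are known for their part in quiescence and retention in the marrow, and the same genes are known to respond to the handling and enzymatic release of cells.

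The letters upstream of the start sites show the sites through which such genes are known to be reached. RefSeq (GRCm38.p6) promoter windows were at hand for 7 of the 10 genes, with 11 windows in all. Egr1, Egr3 and Ier2 had no window. The 250 bases before each start were searched on both strands for the CREB half-site TGACG, which reads CGTCA when it lies on the opposite strand, the full CRE TGACGTCA, the EGR site GCGNGGGCG, the NR4A site AAAGGTCA, the AP-1 site TGANTCA and the CArG box bound by SRF. Both NR4A genes held 4 half-sites and 1 EGR site, Klf2 held 1 of each, and Klf4 held 1 half-site and 2 EGR sites. These stretches are shown because they belong to the 4 of the 7 genes with an EGR site, the letters that the products of Egr1, Egr2 and Egr3 are known to bind. Each runs from 250 to 31 bases before its start, 5′ to 3′ on the gene's strand, with the half-sites and EGR sites in capitals.
Nr4a1, chr15:101266596-101266815, plus strand: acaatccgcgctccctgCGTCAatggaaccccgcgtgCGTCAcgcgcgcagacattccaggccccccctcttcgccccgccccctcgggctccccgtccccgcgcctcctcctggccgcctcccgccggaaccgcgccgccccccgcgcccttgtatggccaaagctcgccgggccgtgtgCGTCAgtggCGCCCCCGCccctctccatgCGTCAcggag
Nr4a2, chr2:57124034-57124253, minus strand: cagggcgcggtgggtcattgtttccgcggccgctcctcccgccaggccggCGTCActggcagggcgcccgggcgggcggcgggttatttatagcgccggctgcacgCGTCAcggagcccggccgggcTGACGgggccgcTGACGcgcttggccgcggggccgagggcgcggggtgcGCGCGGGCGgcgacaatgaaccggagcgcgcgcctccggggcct
Klf2, chr8:72318812-72319031, plus strand: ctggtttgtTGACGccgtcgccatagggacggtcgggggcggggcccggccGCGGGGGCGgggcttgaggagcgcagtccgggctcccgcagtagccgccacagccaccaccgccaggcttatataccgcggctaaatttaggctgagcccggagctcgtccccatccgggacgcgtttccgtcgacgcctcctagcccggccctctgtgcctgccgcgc
Klf4, chr4:55532506-55532725, minus strand: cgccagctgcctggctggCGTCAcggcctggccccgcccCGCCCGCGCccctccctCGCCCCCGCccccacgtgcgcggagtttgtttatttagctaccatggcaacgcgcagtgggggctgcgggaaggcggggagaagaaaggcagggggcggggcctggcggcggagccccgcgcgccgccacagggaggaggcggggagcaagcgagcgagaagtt

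Dusp1 and Egr2 carried the other kinds of letters. The full CRE of Dusp1 and the 2 CArG boxes found before Egr2 start sites are given here with their flanks, with the site in capitals.
Dusp1, chr17:26508597-26508626, minus strand: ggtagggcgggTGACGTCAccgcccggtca
Egr2, chr10:67537484-67537513, plus strand: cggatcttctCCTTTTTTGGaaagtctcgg
Egr2, chr10:67537787-67537816, plus strand: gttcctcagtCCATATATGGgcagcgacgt

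The full CRE contains a half-site on each strand, so it adds 2 of the 3 half-site matches counted for Dusp1, and no other printed sites overlap. Of the 7 genes with a window, 6 held a half-site, 4 an EGR site, 1 a full CRE and 1 a CArG box, none held the NR4A or the AP-1 letters, and the Klf6 window held none of the 6 motifs. Over 32851 mouse windows of the same 250 bases, 17.8% held TGACG, 1.55% TGACGTCA, 4.7% GCGNGGGCG, 1.34% AAAGGTCA, 6.75% TGANTCA and 1.47% a CArG box. These shares are per window, whereas the counts above are per gene with a match in any of its windows. Egr2 was the gene with more than 1 window. These matches describe the letters and do not show that a factor was bound.

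The libraries held 2525884 to 4101132 recovered reads. Dek averaged 511 in DekCon and 2392 in DekTg (log2 fold change 2.23, limma adjusted p = 1.1e-06), with 4 of its values not whole multiples of 1 read. Within each genotype, libraries 1 and 4 were closer to each other (chi-square per degree of freedom 1.58 and 1.65) than any other pair (3.26 to 6.74). Amplified reads can exceed read-counting noise even within 1 sample, so whether libraries 1 and 4 share a source cannot be told from these values. They were counted as separate, as the labels list them, and with them averaged as 1 sample (n = 3 a genotype) no member was called either. Stem cell markers were present in every library, and none of the 10 was called. Log2 fold changes were above 0 for 5 of them and below 0 for 5, Slamf1 among the latter (-0.40). Of 8 erythroid markers 3 were called, Hba-a1 (2.34), Hba-a2 (3.57) and Hbb-bs (3.14), with the log2 fold change in brackets, and the 8 summed to 156 to 440 in DekCon and 477 to 610 in DekTg. Of 8 B lymphoid markers 2 were called, Igkc (3.05) and Jchain (2.31), and the 8 summed to 333 to 1084 in DekCon and 4396 to 5218 in DekTg. None of the markers of progenitors (5 genes), neutrophils, monocytes, T and NK cells or endothelium and stroma (8 genes each) was called. The 2 of smallest p in each had log2 fold changes of 0.60 (Cd34) and 0.73 (Flt3), -0.90 (Mpo) and 0.77 (Ly6g), 0.89 (Adgre1) and 0.54 (Itgam), -0.50 (Nkg7) and 0.68 (Cd4), and 0.66 (Sparc) and 0.31 (Cxcl12). The summed neutrophil markers ranged from 3140 to 9173 in DekCon and from 1638 to 15713 in DekTg, and the DekCon 2 library stood apart with low Cd34 (624, against 1109 to 2265 in the other 7) and Flt3 (161, against 385 to 847). No marker was at 0 in all libraries. The part of these other cells in the values below was not tested.

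None of the 10 early response genes was called between the genotypes. A gene was called when limma's Benjamini-Hochberg adjusted p over all 37414 genes tested was under 0.05, and 13 genes (0.0347%) passed, 10 of them higher in DekTg (0.0267%) and 3 lower (0.00802%). At an unadjusted p under 0.05 there was 1 of the 10, Egr3, against 6.93% of all genes tested (3.15% higher and 3.78% lower in DekTg). Egr3 was higher. No member was called by edgeR (9 of 37409 genes called, 0.0241%) or by DESeq2 (16 of 33765, 0.0474%). DESeq2 without independent filtering called 14 of 37392 genes (0.0374%), none a member. Both tools gave 0 of the 10 at an unadjusted p under 0.05. Genes holding values that are not whole multiples of 1 read, Dek and Fos among them, were left out of both tools. Without such genes limma called 8 genes. Fold changes were computed from log2(value + 1) as DekTg minus DekCon, a scale on which changes of low genes come out too small. They were above 0 for 3 genes (Egr2, Egr3 and Klf2) and below 0 for 7, with a median of -0.11, beside 0.0057 over all genes tested, of which 18950 were above 0. The median of the 10 was -0.062 after quantile normalization and -0.031 with libraries scaled to the same total, where that of all genes tested was 0.083. This 0.083 is the background of every value given below under that scaling. The 3 genes above 0 were also the 3 with the fewest reads, 60, 40 and 25 over the 8 libraries. In sorted bulk RNA, fewer cells carrying a transcript and less of it in each cell cannot be told apart.

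How large a difference the data could hide varied with the gene. The 95% interval of the fold change lay within 2-fold in either direction for 6 genes, Egr1, Nr4a2, Klf4, Klf6, Ier2 and Dusp1. For Egr1, Nr4a2, Klf6 and Dusp1 it did so under each of the 24 alternatives that give an interval. For Ier2 it reached past 2-fold under 12 of the 24, with limits of -1.51 and 1.0005 when limma's robust option was used, and for Klf4 under 5 of the 24, with a lower limit of -1.12 without DekTg 2. It reached past 2-fold for Egr2, Egr3, Nr4a1 and Klf2, so a 2-fold difference lay within the error of these 4.

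**Figure D1:**
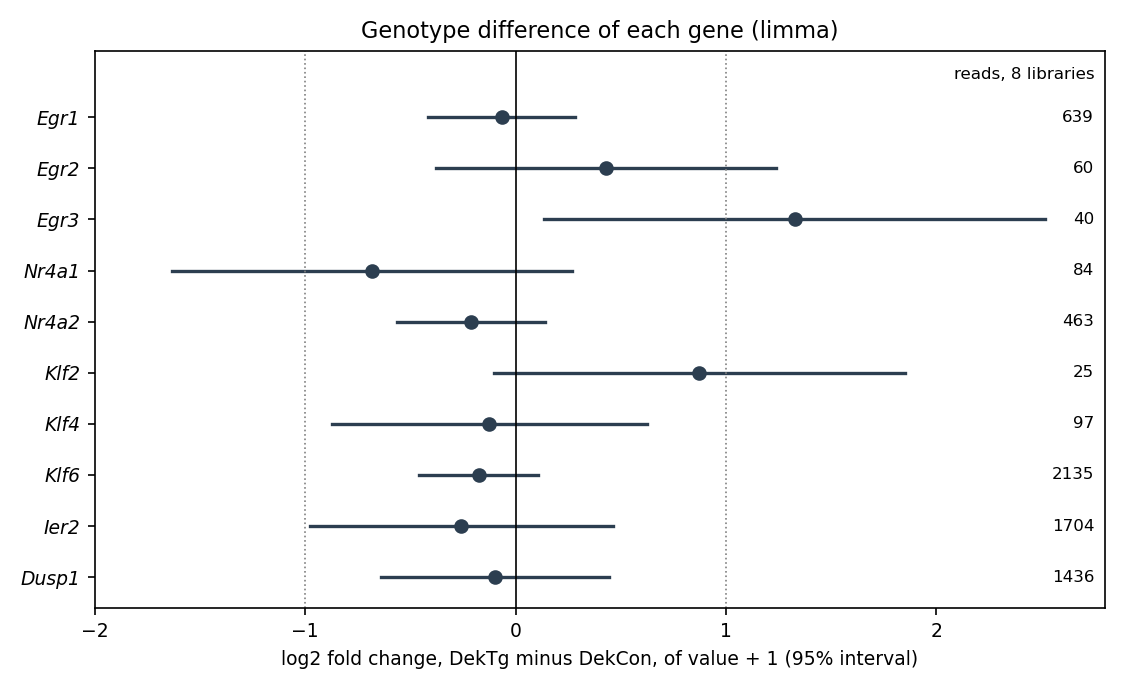
Log2 fold change of each gene, DekTg minus DekCon, on the scale log2(value + 1), from limma (points) with its 95% interval (lines); dotted lines mark a 2-fold change, and the numbers at the right are reads over all 8 libraries. The interval of Egr3 (0.14 to 2.52) is the one that does not include 0, and the intervals of the 4 genes with at most 84 reads reach past 2-fold.

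Divided by the length of the exons, the levels fell into 3 steps. Ier2, Klf6 and Dusp1 stood highest, with means over the 8 libraries of 133, 59.3 and 52.4 normalized reads per kb. Egr1 (17.4 per kb) and Nr4a2 (13.8 per kb) followed, and then Klf4 (3.90), Nr4a1 (2.87), Egr2 (2.18), Klf2 (1.70) and Egr3 (1.08), all per kb. The ranges over the 8 libraries did not overlap between Dusp1 (29.5 to 77.6 per kb) and Egr1 (14.5 to 21.4), nor between Nr4a2 (11.1 to 15.8) and Klf4 (2.41 to 5.91). All other neighbours in this order overlapped, so their order is within the spread. Among the genes in this order, Egr1 stood above Egr2 and Egr3, Nr4a2 above Nr4a1, and Klf6 above Klf2 and Klf4, in all 8 libraries. Other genes of these families, given as counts below, are not part of this order.

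The EGR genes encode zinc finger transcription factors that bind GC-rich sites such as the one searched for above. Egr1, which restrains the division and exit of stem cells, gave normalized read counts of 74.8, 81.3, 96.1 and 67.9 in DekCon 1 to 4 and of 76.6, 86.5, 65.0 and 76.6 in DekTg 1 to 4. The 2 groups overlapped almost wholly, with means of 80.04 ± 12.03 (SD, n = 4) and 76.2 ± 8.78 (SD, n = 4). Egr1 differed by a log2 fold change of -0.066 (SE 0.16, 95% interval -0.41 to 0.28, limma adjusted p = 0.952), and its sign turned when libraries were scaled to the same total (0.019). Under that scaling the median of all genes tested was 0.083, so Egr1 stayed below it.

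Egr2 (chr10:67535475-67542188, plus strand, GRCm38), known for its role in lymphocytes and myelinating cells, was counted at 10.1, 5.74, 4.71 and 4.63 in DekCon and 9.89, 7.21, 9.70 and 7.35 in DekTg. DekCon 1 was the highest of the 8 libraries and the other 3 DekCon libraries were the 3 lowest. Its log2 fold change came to 0.43 (SE 0.38, limma adjusted p = 0.839), and to 0.65 without DekCon 1. Egr3 (chr14:70077203-70082614, plus strand), a close relative often induced together with Egr2, had 1, 0, 6 and 6 reads in DekCon and 9, 6, 7 and 5 in DekTg. After normalization these were 1.27, 0, 5.65 and 4.63 in DekCon and 7.42, 7.21, 6.79 and 5.25 in DekTg. DekCon 1 and 2 were low, DekCon 3 and 4 were near the DekTg libraries, and the groups overlapped. The DekCon 2 library's count of 0 allows up to 3 reads, a value of up to 2.87. Egr3 had the largest fold change of the 10 genes (log2 1.33, SE 0.56, 95% interval 0.14 to 2.52, unadjusted p = 0.0311) and was not called (limma adjusted p = 0.711, 0.523 to 0.9999 over the alternatives). Without DekCon 2 its log2 fold change was 0.79.

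NR4A1 and NR4A2 are orphan nuclear receptors that act without a known natural ligand and are known to keep hematopoietic stem cells from dividing. Nr4a1 (chr15:101254269-101274795, plus strand) stood at 16.5, 5.74, 13.2 and 13.9 in DekCon and at 12.4, 3.60, 3.88 and 11.5 in DekTg. In each genotype some libraries were high and others low: DekCon 2, DekTg 2 and DekTg 3 were the 3 lowest, and the groups overlapped. The means were 12.3 ± 4.61 and 7.85 ± 4.75 (SD, n = 4 each). Its log2 fold change of -0.68 (SE 0.45, 95% interval -1.63 to 0.27, limma adjusted p = 0.786) was the lowest of the 10 genes and moved to -0.43 without DekTg 2. The start site printed above lies inside this gene model, downstream of its first base.

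Nr4a2 (chr2:57106830-57124003, minus strand) behaved otherwise, with 54.5, 64.1, 58.4 and 63.3 in DekCon and 53.6, 55.3, 53.4 and 45.1 in DekTg. The libraries of each genotype lay close together, and only the highest DekTg library, DekTg 2, passed the lowest DekCon library, DekCon 1. The means were 60.1 ± 4.48 and 51.8 ± 4.54 (SD, n = 4 each), and the difference was -0.21 on the log2 scale (SE 0.17, limma adjusted p = 0.818), or -0.13 with libraries scaled to the same total. The third NR4A gene, Nr4a3, which is no member and was chosen after its values were seen, ranged from 3.77 to 21.6 in DekCon and from 1.201 to 16.8 in DekTg.

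The KLF genes encode zinc finger factors that bind GC-rich and CACCC sequences; KLF2 is known for quiescence and trafficking of lymphocytes, KLF4 for myeloid differentiation and reprogramming, and KLF6 for responses to injury. Klf2 (chr8:72319033-72321656, plus strand) rested on 2, 3, 1 and 2 reads in DekCon and 4, 4, 4 and 5 in DekTg. The normalized values were 2.54, 2.87, 0.942 and 1.54 in DekCon and 3.30, 4.805, 3.88 and 5.25 in DekTg. All 4 DekTg libraries were above all 4 DekCon libraries, the single case among the 10 genes; over all genes tested 3.97% did not overlap, of which 2.09% had DekTg higher and 1.88% lower. With 8 reads in DekCon and 17 in DekTg, the log2 fold change of 0.87 (SE 0.46, 95% interval -0.10 to 1.85) was not called (limma adjusted p = 0.741). The summed B lymphoid markers, 2 of 8 of them called, were also higher in every DekTg library than in any DekCon library. So were the summed erythroid markers, 3 of 8 of them called. The part of B lymphoid and erythroid cells in the Klf2 and Egr3 values was not tested.

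Klf4 (chr4:55527143-55532466, minus strand) was measured at 13.9, 7.66, 12.2 and 15.4 in DekCon and 10.7, 18.0, 9.70 and 7.35 in DekTg. The highest and the lowest of the 8 libraries were both DekTg, so the DekCon values lay inside the DekTg range. On the log2 scale Klf4 differed by -0.13 (SE 0.35, limma adjusted p = 0.958). Klf6 (chr13:5861482-5870394, plus strand) gave 298, 258, 247 and 300.2 in DekCon and 237, 291, 242 and 210 in DekTg. DekTg 2 reached the DekCon range, and the other 3 DekTg libraries were below all 4 DekCon libraries. With means of 276 ± 27.2 and 245 ± 33.6 (SD, n = 4 each), the log2 fold change came to -0.18 (SE 0.13, 95% interval -0.46 to 0.11, limma adjusted p = 0.813). It was -0.11 without DekTg 4, -0.085 after quantile normalization, -0.090 with libraries scaled to the same total and -0.093 with libraries 1 and 4 averaged.

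Ier2 (chr8:84661331-84662852, minus strand), an immediate early gene whose product regulates transcription, varied most of the well-counted genes. It stood at 238, 158, 163 and 271 in DekCon and at 277, 67.3, 145 and 300.3 in DekTg. In both genotypes libraries 1 and 4 were high and libraries 2 and 3 low, and the DekTg range, 4.46-fold from lowest to highest, enclosed the DekCon range of 1.72-fold. The means were 208 ± 56.0 and 197 ± 111 (SD, n = 4 each), and the log2 fold change of -0.26 (SE 0.34, limma adjusted p = 0.898) turned to 0.18 without DekTg 2 and was -0.53 without DekTg 4.

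Dusp1 (chr17:26505590-26562128, minus strand), which encodes a phosphatase that inactivates p38, JNK and ERK MAP kinases, stood at 248, 97.6, 136 and 257 in DekCon and at 154, 119, 206 and 171 in DekTg. The spread was wider in DekCon (2.63-fold from lowest to highest) than in DekTg (1.73-fold), and the DekTg values all lay within the DekCon range. The difference on the log2 scale was -0.098 (SE 0.26, 95% interval -0.64 to 0.44, limma adjusted p = 0.955). It took the opposite sign when 1 of 3 libraries was left out (0.082 without DekCon 1, 0.099 without DekCon 4 and 0.042 without DekTg 2). The annotation places 4 genes across the Dusp1 model, 2 of them, Ergic1 and the pseudogene Gm8225, on the other strand and 2 on the same strand, and reads shared with them could not be told apart in this table.

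**Figure D2:**
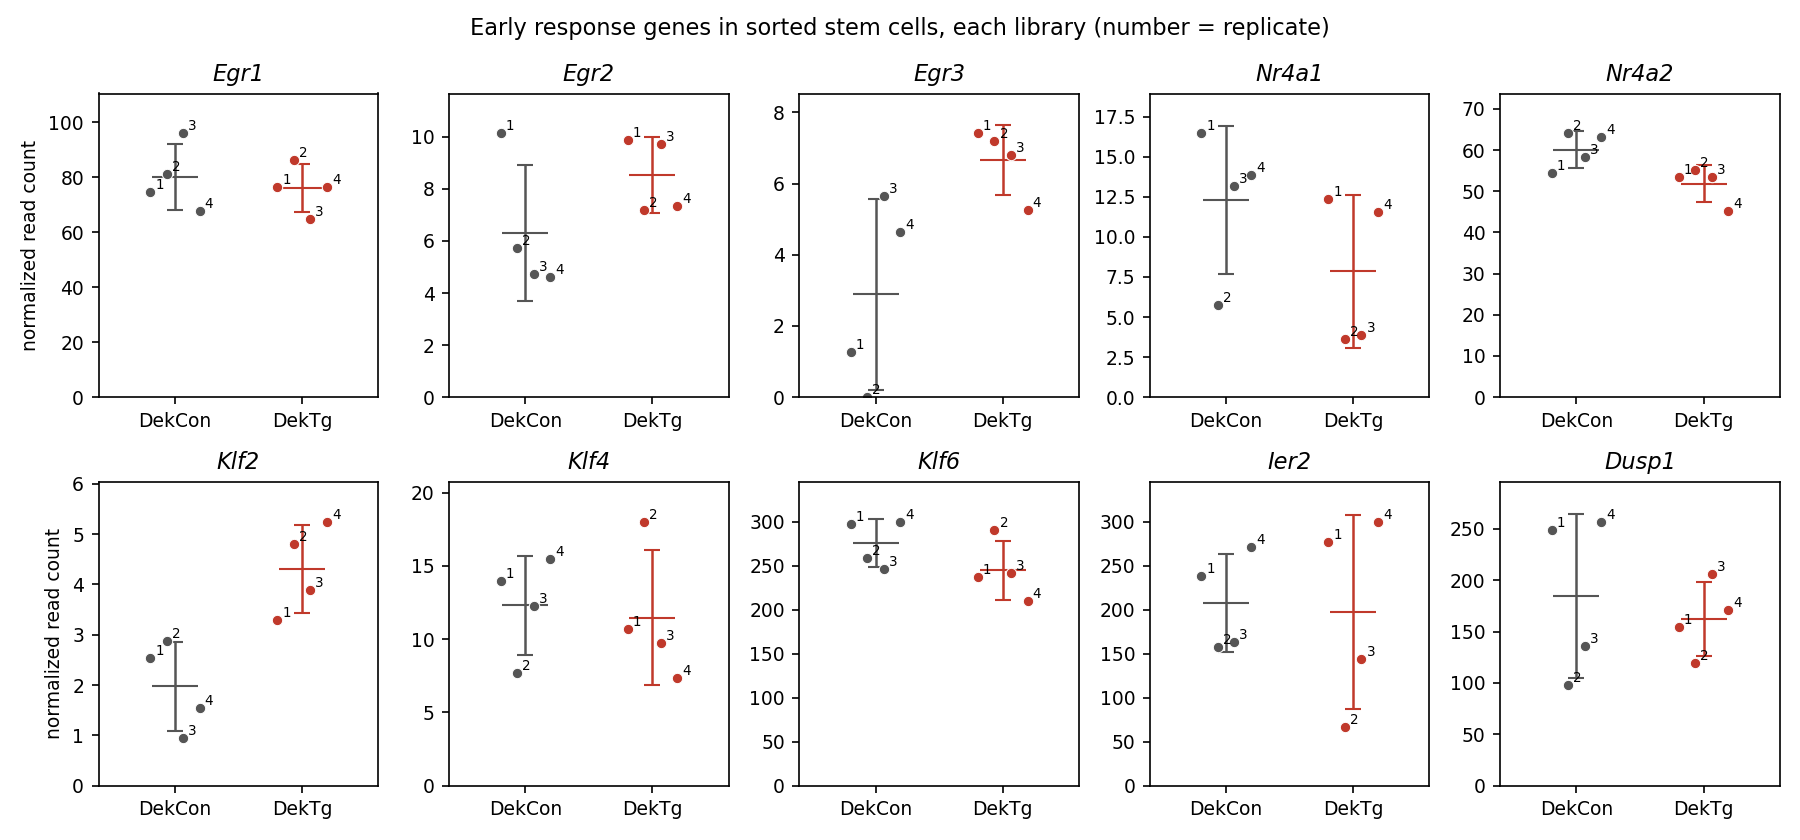
Normalized read count (vertical axis, from 0, a separate scale for each gene) of the 10 genes in the 4 DekCon and 4 DekTg libraries; points are libraries with their replicate numbers, horizontal bars are means and error bars are SD. Klf2 is the gene whose groups do not overlap, at values under 6, and Ier2 spans 67.3 to 300.3 within DekTg.

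Libraries of a genotype differed far more for some of these genes than for others of like level. The measure was the residual SD of log2(value + 1) within genotype, set beside that of the 500 genes nearest in mean value. For Ier2 it was 0.76, larger than in 99.8% of its neighbours, whose median was 0.20. For Dusp1 it was 0.53, larger than in 97.6%, with a median of 0.20. Nr4a1 (0.73, 81.6%) and Egr3 (0.91, 73.8%) were above the middle of their neighbours, Klf6 (0.17, 45.8%) and Klf4 (0.46, 44.0%) were near it, and Egr1 (0.19, 21.6%) and Egr2 (0.36, 9.0%) were below. Nr4a2 (0.12) and Klf2 (0.37) varied less than nearly all of theirs, each exceeding 2.4%. Klf2 and Egr3 rest on 0 to 9 reads a library, so their values move in steps of single reads.

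**Figure D3:**
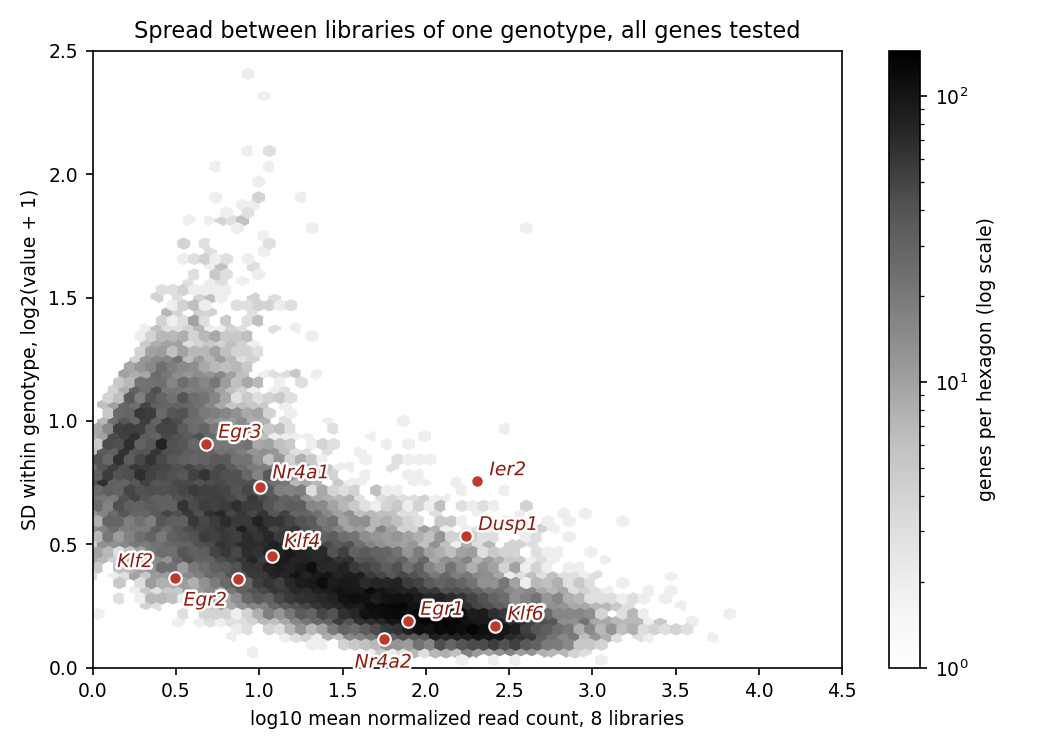
SD of log2(value + 1) within genotype (vertical axis) against log10 of the mean normalized read count over 8 libraries (horizontal axis); grey hexagons count all genes tested, and red points are the 10 genes. Ier2 (0.76) and Dusp1 (0.53) lie above the bulk of genes of their level, and Nr4a2 (0.12) lies at its lower edge.

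The order of libraries seen for Ier2 was looked for in all genes after it had been noticed. Libraries 1 and 4 were both above libraries 2 and 3 in both genotypes for 2 of the 10 genes, Ier2 and Nr4a1, and for 4.20% of all genes tested. It held for 4 of 10 AP-1 genes (Fosl1, Jun, Junb and Batf) and for 8 of 40 other early response genes, among them Socs3, which ranged from 47.8 to 242 in DekCon and from 50.4 to 248 in DekTg. It also held for 2 of 14 other KLF genes, 2 of 15 MAP kinase phosphatases and feedback inhibitors, 2 of 12 genes linked to KLF2 and KLF4, 1 of 5 EGR and NR4A relatives and 1 of 8 endothelial and stromal markers, and for none of the genes of the remaining lists. The reverse order held for 4.97% of all genes tested and for 0 of the 10 members. It held for 3 of 12 heat shock genes, 2 of 14 other KLF genes and 2 of 15 MAP kinase phosphatases and feedback inhibitors. Of the markers, 2 of 8 for neutrophils and 2 of 8 for T and NK cells had it. So did 1 of 10 AP-1 genes, 1 of 40 other early response genes and 1 of 12 genes linked to KLF2 and KLF4. The remaining lists held at most 1 such gene each. Dusp1 followed the order of Ier2 in DekCon and not in DekTg, where DekTg 3 was its highest library. Libraries 1 and 4 were also close over all genes within each genotype. What lies behind the order in these counts was not tested.

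Genes whose profile over the 8 libraries was nearest to a given gene were ranked by the root mean square distance of centred log2(value + 1), among the 13363 genes with a mean of at least 20 that were neither members nor predicted genes or pseudogenes by symbol. Nearest to Ier2, whose own profile had a root mean square of 0.67, were Lyl1 (distance 0.11), Junb (0.14), Spi1 (0.16), Pomgnt2 (0.18) and Jun (0.19). Lyl1 and Spi1 encode transcription factors of blood cells and Junb and Jun encode AP-1 subunits. Nearest to Dusp1 (0.46) were Otulinl (0.11), Psap (0.13), Maged1 (0.14), Znrf1 (0.16) and Pls3 (0.18), none of them among Ier2's. To choose single genes for this ranking was decided after their values were seen. Nearest to the mean profile of all 10 genes (0.19) were Ptger4 (0.062), Ift122 (0.066), Arhgap21 (0.068), Vmn1r209 (0.071) and Rab30 (0.075). That mean profile was lowest in DekCon 2 (-0.43), where 2 of the 10 genes were above their means. Egr3, with 0 reads in DekCon 2, deviated there by -2.27 and weighs heavily in this low point.

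Base composition of the transcript moved with some of these profiles, though not in every library. Ier2 (60.9% G and C, higher than 99.1% of genes), Junb (62.6%), Lyl1 (62.6%), Spi1 (58.9%), Pomgnt2 (57.8%) and Jun (55.5%) are all rich in G and C. The GC-richest of 10 equal bins of genes had a median deviation of -0.53 in DekTg 2, beside -0.12 to 0.31 in the other libraries, and Ier2 deviated by -1.44 in DekTg 2. In DekCon 2, where that bin stood at 0.31, Ier2 (-0.22), Junb (-0.17), Lyl1 (-0.37), Spi1 (-0.24) and Jun (-0.12) were below their means. Pomgnt2 was at 0.036 there, and the subtraction described next took Ier2 in DekCon 2 to -0.49. The part of base composition in these profiles was not tested. After the median of genes of like GC content was subtracted in each library, an alternative added after seeing the data, the SD within genotype went from 0.76 to 0.55 for Ier2, from 0.85 to 0.64 for Junb and from 0.65 to 0.53 for Jun. It stayed at 0.53 for Dusp1 (54.0% G and C) and went from 0.19 to 0.31 for Egr1 (57.3%), whose level did not drop in DekTg 2. Klf2 (61.6%) was at 4.805 in DekTg 2, its second highest library. No member was called after the subtraction.

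**Figure D4:**
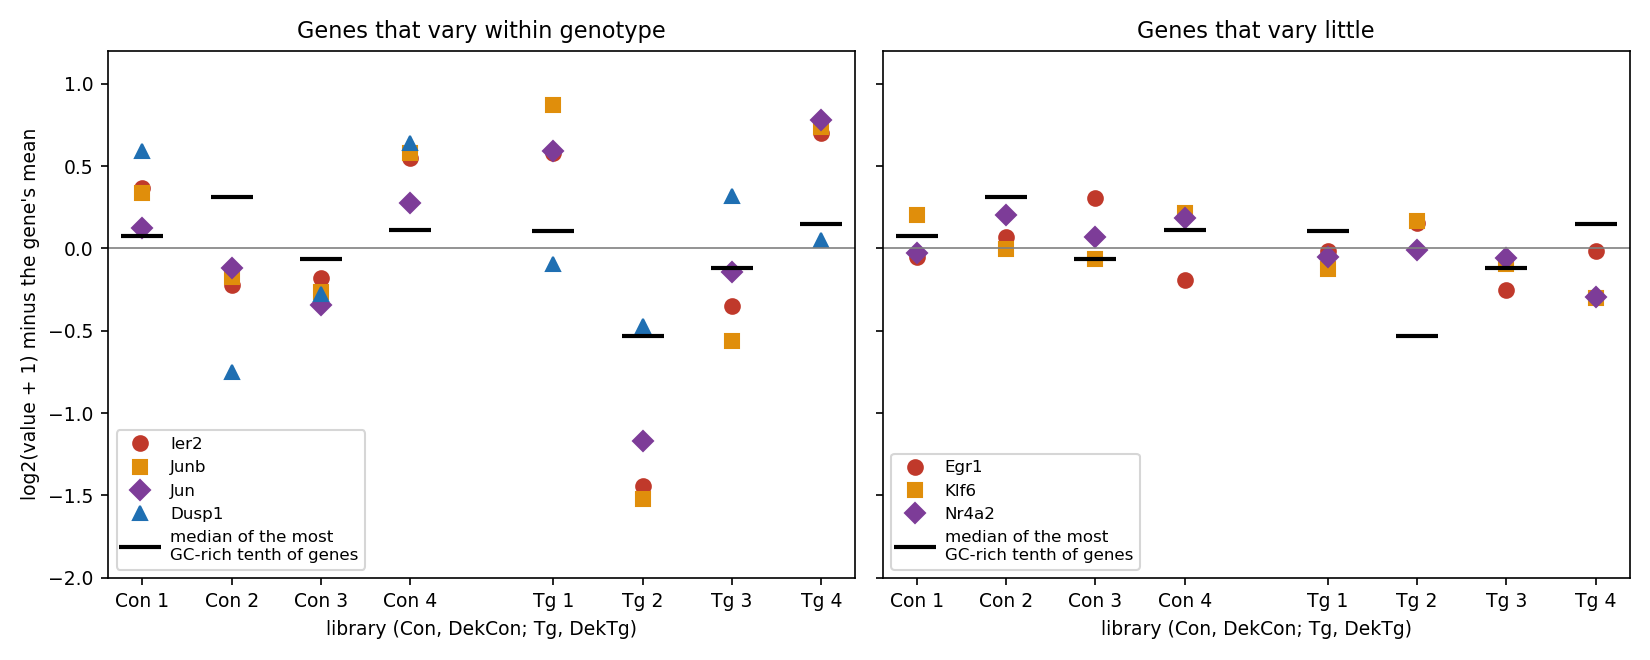
Deviation of log2(value + 1) from each gene's mean (vertical axis) in the 8 libraries (horizontal axis); symbols are genes, and black bars are the median of the GC-richest of 10 equal bins of genes. Ier2 and Junb reach -1.44 and -1.52 in DekTg 2, where the black bar is at -0.53, and Egr1, Klf6 and Nr4a2 stay within 0.31 of their means.

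The other genes of the pathway are given as counts. The relatives of the EGR and NR4A genes (5: Egr4, Nr4a3, Wt1 and the EGR corepressors Nab1 and Nab2) held no called gene and had a median log2 fold change of -0.050, and of 0.030 with libraries scaled to the same total. Nab1 differed by -0.25 (limma adjusted p = 0.785) and Egr4 by 0.63 (limma adjusted p = 0.865). Of 14 other KLF genes none was called (median -0.011, 0.11 after quantile normalization and 0.074 with libraries scaled to the same total). Klf13 (-0.50, limma adjusted p = 0.639), Klf16 and Klf9 were the 3 with an unadjusted p under 0.05, all lower in DekTg, where all genes tested gave 3.78% in that direction.

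AP-1 proteins, dimers of FOS and JUN subunits, are induced alongside the EGR factors. Of 10 AP-1 genes 1 was called, Fos, listed at 29.2 to 49.8 in DekCon and 151 to 322 in DekTg (log2 fold change 2.56, limma adjusted p = 2.7e-05). Of its values 3, in DekCon 1, 3 and 4, were not whole multiples of 1 read, which no value of the 10 early response genes was. Of its relatives, Fosb differed by 0.57 (limma adjusted p = 0.741), Jun by 0.029 (limma adjusted p = 0.989) and Junb by -0.24 (limma adjusted p = 0.920). The median of the AP-1 list was 0.051. Egr1 and Fos, both known targets of SRF, stood at log2 fold changes of -0.066 and 2.56 in the same libraries; the difference between these genes was not tested.

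None of 40 other early response genes was called (median -0.078, and 0.0072 with libraries scaled to the same total). At an unadjusted p under 0.05, 5 were lower and 1 higher, where all genes tested gave 3.78% lower and 3.15% higher. Cited2, a coregulator known to maintain stem cells, differed by -0.70 (limma adjusted p = 0.654) and Ppp1r15a, a phosphatase subunit of the stress response, by -0.46 (limma adjusted p = 0.707). Of 15 MAP kinase phosphatases and feedback inhibitors none was called (median -0.10, -0.060 after quantile normalization and -0.016 with libraries scaled to the same total). Dusp3 (-0.85, limma adjusted p = 0.707) and Dusp5 (1.11, limma adjusted p = 0.711), relatives of Dusp1, lay on opposite sides of 0.

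Upstream of these genes, none of 19 MAP kinases and their kinases was called. Their median was -0.10, 0.021 after quantile normalization and -0.017 with libraries scaled to the same total. Mapk7, which encodes ERK5, a kinase upstream of MEF2 and of Klf2 and Klf4, differed by -0.75 (limma adjusted p = 0.681) and Araf by -0.24 (limma adjusted p = 0.746). None of 14 SRF, TCF, CREB and MEF2 factors was called (median -0.074, 0.0076 after quantile normalization and 0.011 with libraries scaled to the same total). Srf itself stood at 19.02, 27.8, 24.5 and 14.7 in DekCon and 15.7, 7.21, 8.73 and 7.35 in DekTg. DekTg 1 was above DekCon 4, so the groups overlapped, and Srf differed by -1.09 (limma adjusted p = 0.707). Crtc3, a CREB coactivator, differed by -0.24 (limma adjusted p = 0.717).

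Of 12 heat shock genes, which respond to handling and heat, none was called (median -0.11, -0.013 after quantile normalization and -0.027 with libraries scaled to the same total), with Dnajb1 at -0.33 (limma adjusted p = 0.711) and Hspd1 at -0.16 (limma adjusted p = 0.861). Of 12 genes linked to KLF2 and KLF4 none was called (median -0.015, and 0.066 with libraries scaled to the same total). Zeb2 differed by -0.35 (limma adjusted p = 0.716).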

How the data were processed

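The authors deposited 1 table of signal per gene and library whose name calls it FPKM; per the values, the authors' signal is a read count divided by 1 size factor per library, not scaled by length. Of 417792 values 99.99% were whole multiples of 1 read (tolerance 0.001 reads); 25 values in 6 genes were not (Cdc20, Cdk1, Csf2, Dek, Fos and Ifit2), and how they arose was not tested. The tools were HTSeq, DESeq2, Cufflinks 2.1.1 and Bowtie 0.12.9 with build mm10, per the submitters' processing notes; what each tool did, the annotation and any use of strand in counting is not given in the sources used here. Per the labels' protocols, RNA was amplified by the Geo-seq method and made into libraries by tagmentation, so reads without molecular identifiers are not independent molecules and the limit from a count of 0 covers counting error only.

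Genes with a value of at least 1 in at least 4 of 8 libraries were tested (37414, all 10 members among them) with limma 3.58.1 (R 4.3.3) on log2(value + 1), with a mean-variance trend, no covariates and all 8 libraries, two-sided, a log-scale test that fits depth-scaled values. edgeR 4.0.16 and DESeq2 1.42.0 were run on the recovered reads, and scripts were tested on simulated data. Nothing says that libraries are separate animals, so p-values measure the spread between these libraries. The members and the 17 other lists (204 symbols, all tested) were chosen with earlier results of these data known. Named are the 10 members, Dek, each list's called genes or its 2 of smallest p, defining markers, and the 5 genes nearest to the members' mean profile, except 2 genes that are not reported here; other names were chosen after their values were seen (Klf16, Klf9, Jun, Junb, Nr4a3 and the genes of the order, profile and GC checks). Gene positions, lengths and GC content (93.1% of tested genes) are from GENCODE M21. Alternatives were other pseudocounts, filters, scalings, limma options, tools, a replicate block and leaving out each library.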

Additional observations from a re-analysis of the deposited data

How the results depend on the processing

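None of the 10 members was called under any of the 25 alternatives in which it was tested; a filter of 10 in 4 libraries left Egr2, Egr3 and Klf2 untested. Over all genes, the 13 called became 4 without the mean-variance trend, 8 without the 6 genes holding values that are not whole, and 13 to 21 when 1 library was left out (21 without DekTg 2); the 6 called in the lists became 1 without the trend. Egr1 turned to 0.019 with libraries scaled to the same total, where the median of all genes tested was 0.083. It was 0.074 with GC bins subtracted (chosen after seeing the data), and ranged from -0.14 to 0.025 leaving out 1 library (0.025 without DekCon 3, 0.0072 without DekTg 3). Averaging libraries 1 and 4 turned Klf4 to 0.061 and Dusp1 to 0.082. Leaving out 1 library gave -0.35 to 0.044 for Klf4 (0.044 without DekTg 4), -0.53 to 0.18 for Ier2 (0.18 without DekTg 2) and -0.36 to 0.099 for Dusp1 (0.082 without DekCon 1, 0.099 without DekCon 4, 0.042 without DekTg 2). Over the alternatives Egr3 ranged from 0.72 to 2.27 (both with other pseudocounts) and Klf2 from 0.48 to 1.18; at an unadjusted p under 0.05 Nr4a1 passed without DekCon 2 and Klf2 without the trend and with GC bins subtracted. Correlations of same-numbered deviations were 0.03, 0.03, 0.02 and 0.11, and those of unlike numbers ranged from -0.16 to 0.14. Whether the replicate numbers pair the samples cannot be told from such weak values. With the replicate number as a block 15 genes and 0 members were called. Few reads limit Egr2, Egr3, Klf2, Nr4a1 and Klf4. No member, nor Dek, had a library past Dixon's limit in either group (22 checked). The cause of these shifts was not tested.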
